A study of Mus musculus with 42 samples.

Results

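Mice exposed to 0.1% (v/v) acetophenone (ACT) were compared with no odor littermates by pS6-IP-Seq, which sequences the RNA of the olfactory epithelium that is captured with phosphorylated ribosomal protein S6. Of the 42 libraries in the series, 6 belong to this comparison, 3 at 0.1% ACT and 3 with no odor, and all 1088 intact odorant receptor (OR) genes of the table were tested. Every mouse was a C57BL/6 animal (C57BL/6J in the study's methods) of postnatal day 20 to 22 that was habituated and then kept with its cassette for 1 h, the odorant diluted in water for the ACT group. The 3 replicate numbers stand for 3 litters, each giving an exposed and a no odor mouse of the same sex. The same 3 no odor mice also served the 0.01% ACT group. Each library comes from the whole epithelium of a mouse, so more active neurons and more captured RNA per neuron cannot be told apart.

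Each mature olfactory sensory neuron (OSN) expresses a single OR gene, and the OR decides which odorants excite the neuron. Excited OSNs phosphorylate ribosomal protein S6, and an antibody to the phosphorylated form pulls down ribosomes together with the mRNA on them. OR mRNA that is enriched in the pulldown after odor therefore names receptors whose neurons were active. ACT is a sweet-smelling aromatic ketone with known mouse receptors, among them M71 (Olfr151) and M72 (Olfr160). Mouse ORs fall into class I, the receptors related to those of fish, and the larger class II, and most of them lie in clusters on the chromosomes.

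The 0.1% ACT libraries held 117967, 103642 and 84077 counts on ORs in litters 1, 2 and 3, against 76085, 102102 and 80516 counts in the no odor libraries. Of the 1088 ORs, 1072 had a count in at least 1 of the 6 libraries. Values below are CPM, counts scaled to a common total of OR counts with TMM factors, with differences given as log2 fold changes of 0.1% ACT over no odor. Markers of other cell types and activity genes were not analysed here, since the table holds ORs only. The libraries of litter 3 stood closest to each other. Over the counts of all ORs, 0.1% ACT and no odor of litter 3 differed with a chi-square of 5.35 per degree of freedom, the lowest of the 15 pairs of libraries, whose values reached 12.2. No pair was identical.

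The ORs enriched at 0.1% ACT were 7, namely Olfr923, Olfr983, Olfr1377, Olfr889, Olfr145, Olfr1026 and Olfr901. They were 2.67-fold to 13.4-fold higher than in no odor littermates. All 7 are class II receptors, as are 957 of the 1082 ORs of known class. No OR was significantly lower. The 7 enriched ORs are 0.643% of the 1088 ORs tested with edgeR's quasi-likelihood test at an adjusted p under 0.05, and the share lower is 0%. At an unadjusted p under 0.05, 26 ORs were higher (2.39%) and 12 lower (1.1%). With DESeq2, limma-voom and edgeR's likelihood ratio test the numbers enriched were 6 (without Olfr145), 8 and 9, and none of the 3 found an OR lower.

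The rest of the repertoire lay close to 0. Over the 1072 ORs with counts, the median log2 fold change was 0.02 and the quartiles were -0.22 and 0.26. The 7 enriched ORs together took 4.27%, 5.30% and 2.01% of the OR counts at 0.1% ACT in litters 1, 2 and 3, against 0.602%, 0.619% and 0.692% in the no odor libraries. Their shares at 0.1% ACT averaged 3.86% ± 1.68, against 0.638% ± 0.0477 with no odor (SD, n = 3 each). The exact 95% binomial intervals of these shares, which cover counting error only, ran from 1.92% to 2.11% in the 0.1% ACT library of litter 3 and from 0.636% to 0.751% in its no odor littermate. The 2 groups did not overlap. Since the ORs summed here were chosen by this contrast, these shares are a description and carry no test.

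**Figure D1:**
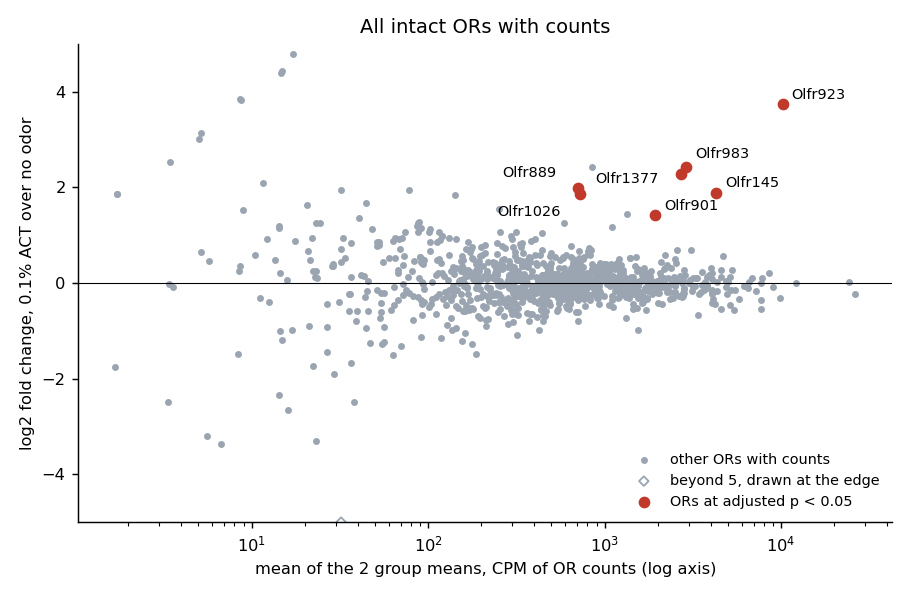
Each point is an OR with counts, with the mean of the 2 group means in CPM (log axis) across and the log2 fold change of 0.1% ACT over no odor upward. The 7 enriched ORs (red) lie between 1.41 and 3.75, the other ORs (grey) spread around 0, and a diamond marks a value beyond 5 that is drawn at the edge.

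Olfr923, the receptor with the largest change among the enriched ORs, had 20996.5, 27650 and 8585 CPM at 0.1% ACT in litters 1, 2 and 3, against 926, 1289 and 1753 CPM in the no odor mice. These values rest on 2224, 2672 and 825 counts at 0.1% ACT and on 69, 127 and 156 counts with no odor. The lowest exposed mouse stood well above the highest no odor mouse. The log2 fold change was 3.75 with an SE of 0.42 (adjusted p = 3.54e-04), which is 13.4-fold with a 95% interval of 7.12 to 25.3. Olfr923 alone took 1.89%, 2.58% and 0.981% of the OR counts at 0.1% ACT, against 0.0907%, 0.124% and 0.194% with no odor.

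Olfr983 had 4711, 8103 and 2123 CPM at 0.1% ACT, against 644, 1025 and 820 CPM with no odor. The groups did not overlap, and the log2 fold change was 2.42 (SE 0.32, adjusted p = 3.54e-04). Olfr901, a close relative of Olfr983, had 3257, 4232 and 1113 CPM at 0.1% ACT, against 1020, 1441 and 573 CPM with no odor. Here the groups overlapped, because the exposed mouse of litter 3 lay below the no odor mouse of litter 2, although each exposed mouse exceeded its own littermate. The log2 fold change of Olfr901 was 1.41 (SE 0.25, adjusted p = 0.0111).

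Olfr145, which belongs to the receptors listed as known to respond to ACT, had 8535, 9220 and 2862 CPM at 0.1% ACT, against 1945, 1228 and 1888 CPM with no odor. All exposed mice were higher than all no odor mice, with a log2 fold change of 1.89 (SE 0.37, adjusted p = 0.0335). With DESeq2 the call of Olfr145 was lost, at a log2 fold change of 1.86 (adjusted p = 0.378). Olfr889 had 1794, 1314 and 395 CPM at 0.1% ACT, against 201, 264 and 292 CPM with no odor. The groups did not overlap, though in litter 3 the distance was small, and the log2 fold change was 2.0 (SE 0.42, adjusted p = 0.0335).

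The other 2 enriched ORs do not lie on chromosome 9. Olfr1377, on chromosome 11, had 6675, 5174 and 1915 CPM at 0.1% ACT, against 1046, 954 and 596 CPM with no odor. The groups did not overlap, and of all ORs this one had the smallest p (log2 fold change 2.28, SE 0.27, adjusted p = 2.84e-04). Olfr1026, on chromosome 2, had 1633, 1200 and 635 CPM at 0.1% ACT, against 362, 213 and 337 CPM with no odor. Every exposed mouse was higher than every no odor mouse, and the log2 fold change was 1.86 (SE 0.34, adjusted p = 0.0127).

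**Figure D2:**
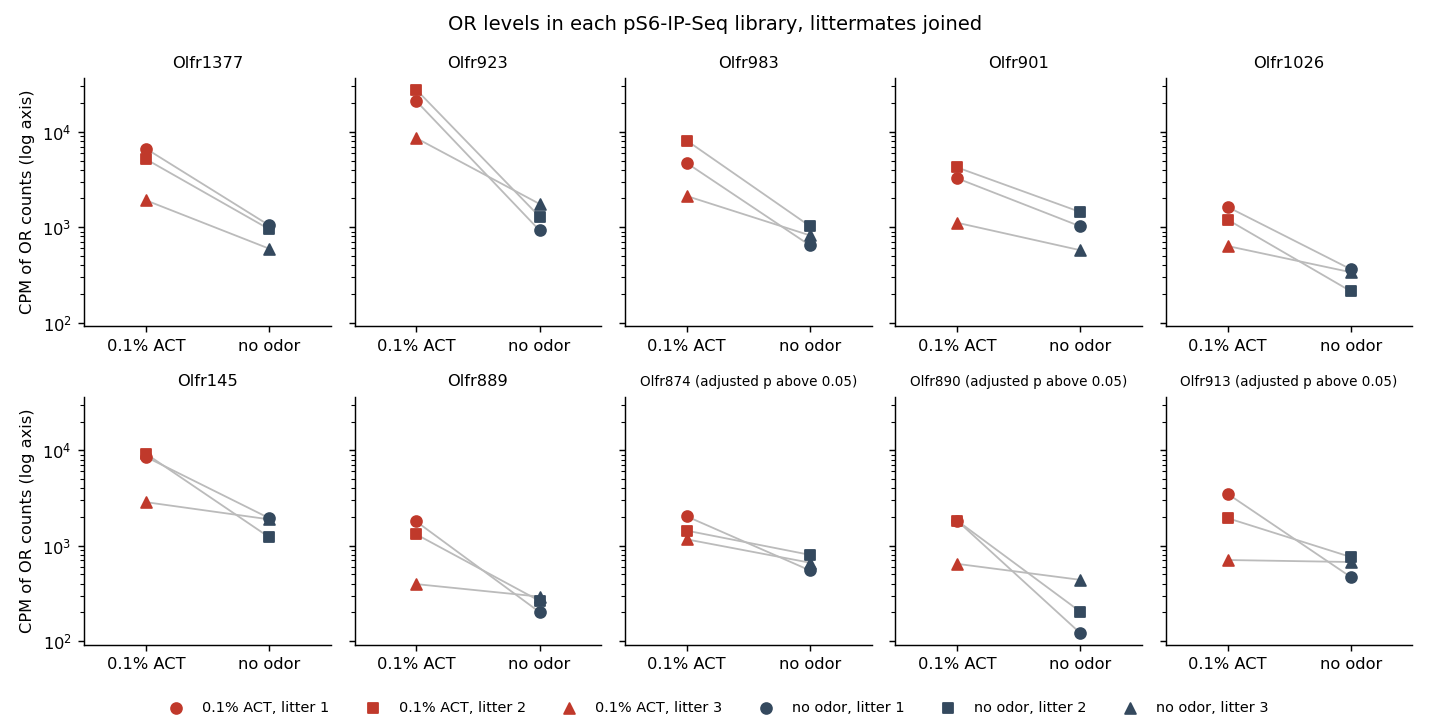
CPM of OR counts (log axis) in each library for the 7 enriched ORs and for Olfr874, Olfr890 and Olfr913, which missed the threshold, with 0.1% ACT on the left and no odor on the right and lines joining littermates. Every line falls toward no odor, and the exposed mouse of litter 3 (triangle) is the lowest of its group for each of the 10 ORs.

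Across all ORs, 34 had all 3 exposed mice above all 3 no odor mice (3.12% of 1088) and 32 had all 3 below (2.94%). The number of ORs without overlap was thus about as large downward as upward. Of the 7 enriched ORs, 6 were without overlap, and Olfr901 was not.

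The stretches below, from 6 of the enriched receptors, let them be compared over a short conserved run only. They come from the coding sequence around the codons for aspartate, arginine and tyrosine at the end of the third transmembrane segment. That motif is a signature of ORs and of many other G protein-coupled receptors. These 3 codons are in capitals. The runs are 30 bases, 5′ to 3′ on the gene's own strand, read from the RefSeq GRCm38.p6 genome at the GENCODE M21 coding exons.
Olfr923, chr9:38828059-38828088, plus strand: gcaatggcatatGACCGTTATgttgctatt
Olfr145, chr9:37897751-37897780, plus strand: gcaatggcatatGACAGGTATgttgccatc
Olfr983, chr9:40092578-40092607, minus strand: gcaatggcctatGACAGATATgctgccatc
Olfr889, chr9:38116143-38116172, plus strand: gcaatggcctatGACAGATATgctgccatc
Olfr901, chr9:38430632-38430661, plus strand: gcaatgtcctatGACAGATATgtggccata
Olfr1026, chr2:85923618-85923647, plus strand: gttatggcttatGATCGTTATgtggccatc
Olfr889 and Olfr983 were the same in all 30 bases, whereas Olfr1026 differed from both at 8 positions. The run does not rank relatives as whole coding sequences do. Olfr983 differed from Olfr145 at 3 positions and from Olfr901 at 4, with whole-sequence identities of 72.8% and 84.1%. A run of these 3 amino acids was encoded in 854 of the 1082 ORs with a coding sequence (78.9%), so its presence does not set the enriched receptors apart.

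Over whole coding sequences the 7 enriched ORs fell into unlike kinds. Identity was taken as the share of positions left after the edit distance between 2 coding sequences, and among the 21 pairs it ran from 58.0% (Olfr1377 and Olfr901) to 84.1% (Olfr901 and Olfr983), with a median of 61.0%. Olfr889, Olfr901 and Olfr983 were 82.9% to 84.1% alike. Olfr145 and Olfr923 were 71.4% alike, and Olfr145 was 71.8% to 72.8% like each of these 3 relatives. Olfr1026 and Olfr1377 were at most 61.0% like any other enriched receptor.

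The 3 closest ORs of each enriched receptor are 18 different ORs, of which 3, Olfr983, Olfr901 and Olfr145, were themselves enriched and 15 were not, beside 0.643% of all ORs. Among those 15, 10 had a positive log2 fold change, beside 558 of all 1072 ORs with counts (52.1%). Their median was 0.42, against 0.02 for all ORs with counts. The closest relative of Olfr889 is Olfr890, at 91.3% identity. It had 1832, 1832 and 645 CPM at 0.1% ACT, against 121, 203 and 438 CPM with no odor, without overlap, and a log2 fold change of 2.44 that did not pass (SE 0.57, adjusted p = 0.287).

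Olfr888, the relative of Olfr889 that is next in identity, was at 434, 217 and 52.0 CPM at 0.1% ACT, against 13.4, 50.7 and 89.9 CPM with no odor, so that its groups overlapped (log2 fold change 1.85, SE 0.83, adjusted p = 1). Olfr884, at 89.3% identity, had a log2 fold change of 0.33 (SE 0.27). Reads of 50 bases cannot always separate these genes, since 23.6% of the 50-base stretches of the Olfr889 coding sequence occur in another OR of the table, Olfr888 and Olfr890 included. The part of this sharing in the values of each gene was not tested beyond the sum that follows. When the counts of Olfr888, Olfr889 and Olfr890 were summed, the total was 4060, 3363 and 1093 CPM at 0.1% ACT, against 335, 517 and 820 CPM with no odor. The summed log2 fold change was 2.21 (SE 0.67), and it did not pass the test (adjusted p = 1), so the call of Olfr889 was not kept in the sum.

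Olfr1377 has its own pair of neighbours and relatives, Olfr51 at 89.3% and Olfr1378 at 86.3% identity. Olfr51 was at 831, 186 and 187 CPM at 0.1% ACT, against 53.7, 152 and 112 CPM with no odor, with no overlap but with a change that was large only in litter 1 (log2 fold change 1.54, SE 0.60, adjusted p = 1). Olfr1378 had a log2 fold change of -0.13 (SE 0.85). Of the 50-base stretches of the Olfr1377 coding sequence, 19.3% occur in one of these relatives. With the 3 genes summed, the total was 7562, 5505 and 2154 CPM at 0.1% ACT, against 1113, 1218 and 899 CPM with no odor, and it was called with a log2 fold change of 2.08 (SE 0.30, adjusted p = 0.00146).

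For Olfr145 the closest relatives were Olfr874, Olfr875 and Olfr876, each between 82.6% and 83.2% identical to it. Olfr874 was the first OR outside the threshold, with 2030, 1438 and 1166 CPM at 0.1% ACT, against 550, 802 and 663 CPM with no odor (log2 fold change 1.17, SE 0.28, adjusted p = 0.0909). Its groups did not overlap. Olfr875 is 95.6% identical to Olfr874 and gave 500, 476 and 531 CPM at 0.1% ACT, against 537, 446 and 618 CPM with no odor (log2 fold change -0.08, SE 0.30). Of the 50-base stretches of the Olfr874 coding sequence, 16.1% occur in Olfr875 or Olfr876, and the log2 fold change of Olfr876 was 0.60 (SE 0.30, adjusted p = 1). Whether Olfr874 and Olfr875 differ in their change was not tested.

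Olfr923 and Olfr1026 have no close copies in the table. The nearest OR to Olfr923 was Olfr147, at 71.7% identity, with a log2 fold change of 0.49 (SE 0.31, adjusted p = 1). The nearest to Olfr1026 was Olfr1030, at 68.2%, with 0.42 (SE 0.25, adjusted p = 1). None of the 50-base stretches of the coding sequences of Olfr923, Olfr1026 and Olfr145 occurred in another OR of the table, and 1.45% of those of Olfr983 and 7.24% of those of Olfr901 did.

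Of the 7 enriched ORs, 5 lie in 1 gene cluster on chromosome 9, with ORs under 1 Mb apart counted to the same cluster. In GRCm38 it spans chr9:37708964-40190134 and holds 95 ORs of the table, of which 5 (5.26%) were enriched, against 0.643% of all ORs. In the order of the chromosome they are Olfr145 (chr9:37896724-37903519), Olfr889 (chr9:38115198-38121245), Olfr901 (chr9:38429455-38432682), Olfr923 (chr9:38826545-38830300) and Olfr983 (chr9:40086908-40093595). At an unadjusted p under 0.05, 12 ORs of the cluster were higher and 0 lower, against 14 higher and 12 lower among the other 987 placed ORs. Besides the 5 enriched ORs, those 12 include Olfr874, Olfr888, Olfr890, Olfr913 and Olfr961. The median log2 fold change was 0.18 over the cluster's 91 ORs with counts and 0.01 over the ORs outside it. The cluster also holds the relatives that share reads, as given above for Olfr889, so its ORs are not independent of each other.

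The 14 OR neighbours on either side of the 7 enriched ORs did not pass the test, with a median log2 fold change of 0.20. Olfr922 and Olfr924 flank Olfr923 at distances of 7350 and 14149 bases, and their log2 fold changes were 0.49 (SE 0.70) and -0.55 (SE 0.48). Olfr982 and Olfr984 flank Olfr983, with log2 fold changes of 0.14 (SE 0.30) and -0.59 (SE 0.38). Olfr877 and Olfr878, to either side of Olfr145, had 0.36 (SE 0.33) and 0.27 (SE 0.27). The neighbours with the largest values were Olfr890, Olfr888 and Olfr51, which are also close relatives and are described above.

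**Figure D3:**
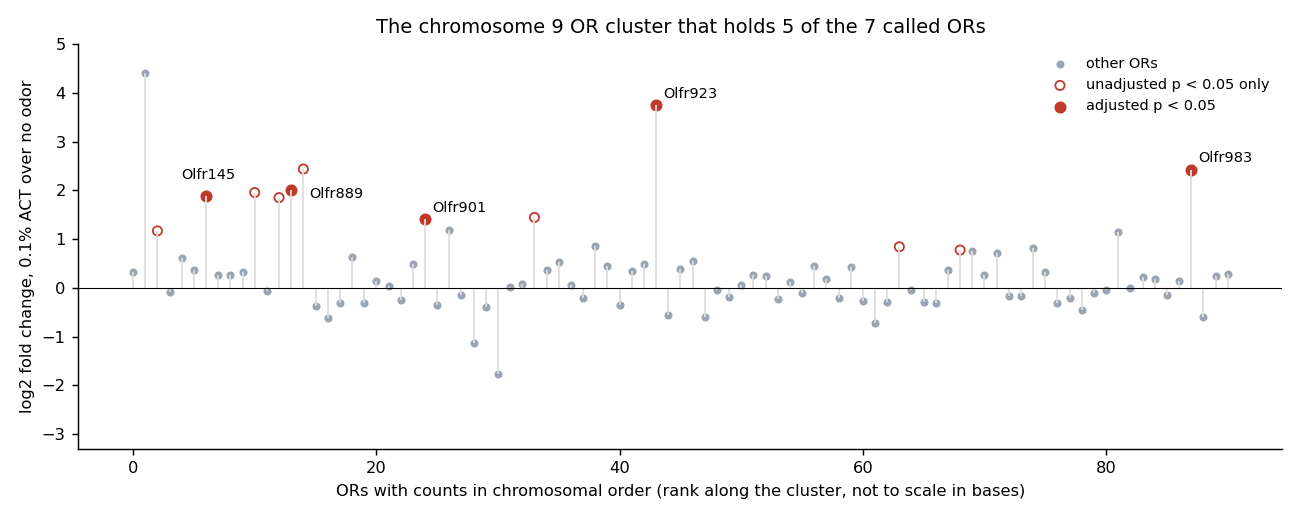
Log2 fold change of 0.1% ACT over no odor for the ORs with counts in the chromosome 9 cluster, in their order along the chromosome and not to scale. Of the 5 enriched ORs (filled red), Olfr889 stands between Olfr888 and Olfr890, at 1.85 and 2.44. The neighbours of the others lie between -0.59 and 0.49. The open red points are ORs with an unadjusted p under 0.05 only. The grey point above 4 is Olfr151, whose fitted value rests on 9 counts.

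Olfr1377 (chr11:50981967-50986593) lies in a cluster of 4 ORs of the table, and Olfr1026 (chr2:85921558-85924623) in the cluster on chromosome 2 with 217 ORs, where it was the only OR enriched (0.461%). Olfr1028, the right neighbour of Olfr1026, had a log2 fold change of -0.46 (SE 0.32).

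Of the 7 enriched ORs, 4 were dorsal. In unprecipitated RNA from the dorsal and from the ventral mucosa, libraries that played no part in choosing these ORs, Olfr923, Olfr1377, Olfr145 and Olfr1026 were dorsal. Their log2 ratios of dorsal over ventral mucosa were 4.43, 3.52, 3.84 and 3.87, with adjusted p between 1.24e-04 and 1.4e-04. Olfr889 was ventral with a log2 ratio of -0.84 (SE 0.34, adjusted p = 0.0464), a call that was lost with the replicate number as a block (adjusted p = 0.178). Olfr983 and Olfr901 were not assigned, at -0.62 (adjusted p = 0.122) and -0.68 (adjusted p = 0.118). Of all 1087 ORs measured there, 38.3% were called dorsal and 40.2% ventral, in a fit without a block, since the labels do not say that numbers pair these libraries. With the replicate block 407 were dorsal and 404 ventral.

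Of the 416 dorsal ORs, 4 (0.962%) were enriched at 0.1% ACT, of the 437 ventral ORs 1 (0.229%), and of the 234 unassigned ORs 2 (0.855%), against 0.643% of all ORs. The median log2 fold changes at 0.1% ACT were 0.08 for dorsal, 0.02 for ventral and -0.12 for unassigned ORs. None of the 125 class I ORs was enriched and their median was -0.0014, against 7 of 957 class II ORs (0.731%) with a median of 0.02. The class I ORs with the smallest p were Olfr545, with a log2 fold change of 1.07 (SE 0.39, adjusted p = 1), Olfr643, with 0.88 (SE 0.38, adjusted p = 1), and Olfr689, with -0.53 (SE 0.24, adjusted p = 1).

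Receptors named for ACT by other assays are given here beside the 0.643% enriched among all ORs. Of 86 ORs that an earlier pS6 study had listed for ACT, 6 (6.98%) were enriched here and the list's median log2 fold change was 0.14, against 0.02 for all ORs. The OR it did not hold was Olfr889. Of the 44 ORs in the table used here for DREAM, a method that looks for OR mRNA that falls after odor exposure, 5 (11.4%) were enriched, with a median of 0.20. All 7 enriched ORs were among the 516 tested in a luciferase assay in cultured cells (1.36% of those tested). Of them 4, Olfr923, Olfr983, Olfr1377 and Olfr145, were among the 106 above the cut-off for activation (3.77%, median 0.07). The share enriched was 0.732% among the 410 tested and not activated. The DREAM and activation lists, as used here from tables, differ slightly in length from those the text of the study describes. Olfr901, Olfr1026 and Olfr889 were tested there and not among those activated.

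Of the 3 receptors listed as known to respond to ACT, Olfr145 was the one enriched. Olfr160 (M72) had 227, 300 and 364 CPM at 0.1% ACT, against 201, 203 and 303 CPM with no odor. These groups overlapped, and its log2 fold change was 0.33 with a 95% interval of -0.52 to 1.19 (adjusted p = 1). Olfr151 (M71) had 6, 3 and 0 counts at 0.1% ACT in litters 1, 2 and 3, and no count in the no odor libraries. There, 0 of 258703 OR counts allows a share of up to about 0.00116%, taken as 3 counts over the total (counting error only). With 9 counts in all, a change of Olfr151 was not detectable at this depth (adjusted p = 1). The study corrected the annotation of Olfr151 against that of Olfr160, so the level of each depends on that correction.

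Other receptors that the study discusses for ACT did not pass the test here, among them the following 3. The study names Olfr1427 as enriched at 0.01% ACT. For Olfr30 and Olfr376 it reports no significant enrichment at 0.1% ACT either, and calls them at higher concentrations only. Olfr1427 had 10914, 8423 and 6868 CPM at 0.1% ACT, against 10933, 10258 and 6642 CPM with no odor, with a log2 fold change of -0.08 and a 95% interval of -0.59 to 0.43. Its log2 difference of 0.1% minus 0.01% ACT was -1.09 (SE 0.31) and did not pass (quasi-likelihood test, adjusted p = 0.883). Olfr30 had a log2 fold change of -0.16 (95% interval -0.67 to 0.35). Olfr376 had 4126, 2297 and 1655 CPM at 0.1% ACT, against 1690, 1360 and 2079 CPM with no odor. The exposed mouse was above its littermate in litters 1 and 2 and below it in litter 3, with a log2 fold change of 0.58 (SE 0.29, adjusted p = 1).

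Receptors with other ligands were looked at in the same libraries. None of 8 such ORs passed the test, beside 0.643% of all ORs, and the median of their log2 fold changes was 0.03. Olfr16 (MOR23, a receptor for lyral) had 1775, 2111 and 1675 CPM at 0.1% ACT, against 2670, 2029 and 1697 CPM with no odor (log2 fold change -0.18, 95% interval -0.70 to 0.33). Olfr73 (mOR-EG, a eugenol receptor) gave -0.30 (95% interval -0.98 to 0.38). Olfr17 (P2) and Olfr1507 (MOR28) gave -0.05 and 0.26, and Olfr1019, a receptor for TMT, 0.11. Outside that list, Olfr140, the OR with the most counts, had 24896, 38682 and 12842 CPM at 0.1% ACT, against 26482, 29383 and 26018.5 CPM with no odor, and a log2 fold change of -0.23 (SE 0.30).

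Beyond Olfr874 and Olfr890, the ORs with the next smallest p on the higher side were Olfr478, Olfr913, Olfr545, Olfr961, Olfr109, Olfr491, Olfr51 and Olfr1278, with log2 fold changes between 0.69 and 1.54 and adjusted p between 0.988 and 1. Olfr913, of the chromosome 9 cluster, had 3503, 1945 and 708 CPM at 0.1% ACT, against 470, 761 and 674 CPM with no odor, so that the exposed mouse of litter 3 lay within the no odor range. Olfr961 was above its littermate in every litter, with changes of 0.74, 0.89 and 0.69 in litters 1, 2 and 3.

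On the lower side the smallest p belonged to Olfr362, Olfr1484, Olfr221, Olfr134 and Olfr373. Olfr362 had 1473, 993 and 531 CPM at 0.1% ACT, against 3689, 984 and 1596 CPM with no odor. Its groups overlapped and the log2 fold change of -0.97 did not pass (SE 0.30, adjusted p = 0.498). Scaling by the totals of OR counts in place of TMM gave Olfr362 an adjusted p of 0.0294. Olfr1484, at 1444.5, 807 and 780 CPM at 0.1% ACT against 2053, 1218 and 1663 CPM with no odor, had -0.73 (SE 0.24, adjusted p = 0.812). The other 3 lay between -0.79 and -1.48 with adjusted p between 0.988 and 1.

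The 3 litters agreed in direction for the 7 enriched ORs but not in size. The test that chose these ORs favours such agreement, so it is a description. Of all 1088 ORs, 132 were higher in every litter and 115 lower in every litter. Taken per litter, as log2 of (CPM + 5) over (CPM + 5), the changes of the 7 ORs had medians of 2.67 in litter 1, 2.47 in litter 2 and 0.95 in litter 3, and litter 3 had the smallest change for each of the 7. Olfr923 changed by 4.5, 4.42 and 2.29 in litters 1, 2 and 3. Olfr145 changed by 2.13, 2.90 and 0.60, and Olfr889 by 3.12, 2.30 and 0.43. The most even of them were Olfr901, with 1.67, 1.55 and 0.95, and Olfr1377, with 2.67, 2.43 and 1.68. For comparison, over the 915 ORs whose counts averaged 10 or more, the median changes were 0.01, 0.00 and 0.03 in the 3 litters.

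**Figure D4:**
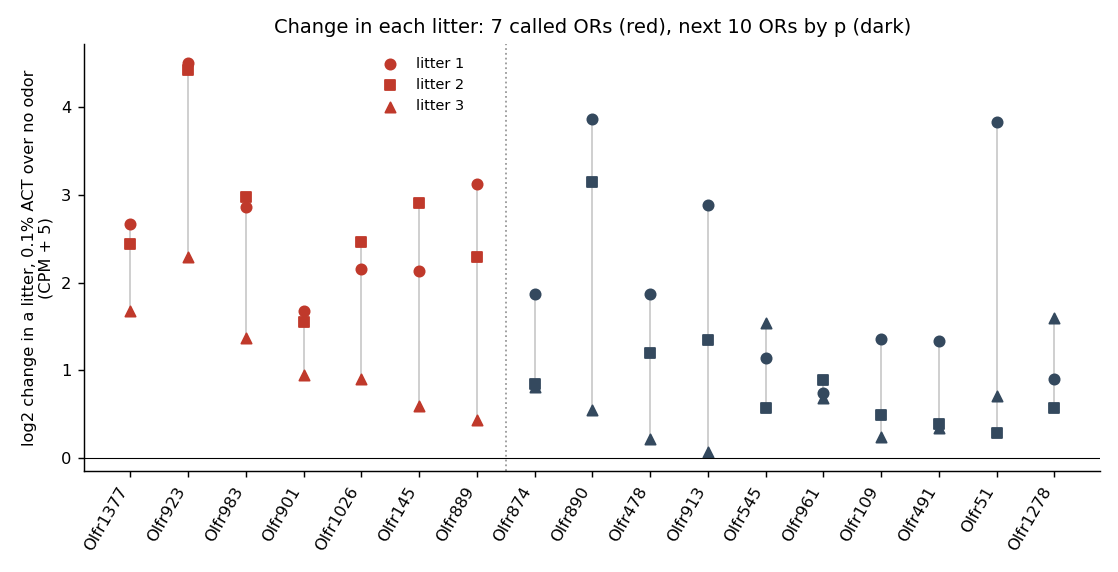
Log2 change of 0.1% ACT over no odor within each litter (CPM + 5) for the 7 enriched ORs (red, in the order of their p) and the next 10 ORs (dark), with a marker shape per litter. Litter 3 (triangle) is the lowest for each of the 7 enriched ORs, between 0.43 and 2.29, and is the highest for Olfr545 and Olfr1278.

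The calls depend on single litters. Without litter 3, 11 ORs were enriched, the 7 above and Olfr874, Olfr888, Olfr890 and Olfr913, and Olfr1213 was lower. Without litter 1 no OR passed the test (edgeR quasi-likelihood, smallest adjusted p = 1, with 17 ORs higher and 18 lower at an unadjusted p under 0.05). Without litter 2 none passed either (smallest adjusted p = 0.932, with 21 ORs higher and 10 lower at an unadjusted p under 0.05). The log2 fold changes of the 7 stayed between 1.25 and 4.45 in these fits of 2 litters each. In a joint fit that added the 0.01% ACT libraries, no OR passed, and the smallest adjusted p was 0.0801, for Olfr923 and Olfr983.

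At 0.01% ACT, with the same no odor mice, the log2 fold changes of the 7 ORs stood beside those at 0.1% ACT as follows. Olfr923 had 3.10 (SE 0.56) at 0.01% and 3.75 (SE 0.42) at 0.1%, Olfr983 had 2.02 (SE 0.32) and 2.42 (SE 0.32), and Olfr901 had 1.53 (SE 0.39) and 1.41 (SE 0.25). For Olfr889 the values were 1.49 and 2.0, for Olfr145 0.72 and 1.89, for Olfr1377 0.64 and 2.28, and for Olfr1026 0.11 and 1.86. By the quasi-likelihood test no OR was enriched at 0.01% ACT (0%, with 18 higher and 10 lower at an unadjusted p under 0.05). The study's own fit, a likelihood ratio test, reports enriched ORs at 0.01% ACT, with Olfr923 and Olfr983 the most significant. Why these calls differ was not tested.

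In the direct comparison of 0.1% with 0.01% ACT within the litters, no OR passed the test (edgeR quasi-likelihood, smallest adjusted p = 0.883, with 23 ORs higher and 27 lower at an unadjusted p under 0.05). Olfr1026 came nearest among the 7, with a log2 difference of 1.74 (SE 0.47, unadjusted p = 0.00473, adjusted p = 0.883). Olfr1377 and Olfr145 were 1.52 (95% interval 0.25 to 2.80) and 1.22 (0.31 to 2.12) higher at 0.1%, each with an adjusted p of 0.883. The intervals of Olfr923 (-0.55 to 1.75), Olfr983 (-0.42 to 1.23), Olfr901 (-1.12 to 0.75) and Olfr889 (-0.80 to 1.63) included 0. Because the 7 ORs were chosen by being high in these same 0.1% ACT libraries, their differences are a description. The likelihood ratio test and limma-voom gave 0 ORs as well, and DESeq2 gave 1, Olfr773, which was lower at 0.1%.

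At 1% ACT, with other litters and other no odor mice, 15 ORs were enriched (1.38%) and 3 lower (0.276%), and none of the 7 was among them. Their log2 fold changes at 1% were 2.83 for Olfr923, 1.92 for Olfr1377, 1.45 for Olfr145, 1.23 for Olfr1026, 1.01 for Olfr889, 0.82 for Olfr901 and 0.70 for Olfr983. The litters of that experiment lay far apart for Olfr923, which had 1125, 10629 and 23779 CPM at 1% ACT, against 811, 1028 and 1314 CPM in the no odor mice of that experiment. At 100% ACT, whose no odor mice are those of the 1% group, no OR was enriched (0%, with 114 ORs higher and 41 lower at an unadjusted p under 0.05). Olfr923 was at 2.0 there (adjusted p = 0.0513), and Olfr983 and Olfr901 were at -0.27 and -0.50. The study's own fit, a likelihood ratio test, reports enriched ORs at 100% ACT, with Olfr923 significant at 1% and at 100% ACT. Why those calls differ from the calls here was not tested.

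The difference between the responses at 0.1% and at 1% ACT, tested over 12 libraries, passed for no OR (edgeR quasi-likelihood, smallest adjusted p = 0.523, with 23 ORs higher and 19 lower at an unadjusted p under 0.05). The likelihood ratio test, DESeq2 and limma-voom gave 0 as well. Olfr983 was the enriched OR nearest to a difference, with a log2 difference of 1.71 (SE 0.46, unadjusted p = 0.00144, adjusted p = 0.523). Without litter 3 of both experiments Olfr983 passed (adjusted p = 0.0124). For the other 6 the 95% intervals of the difference included 0 and were wide, as for Olfr923 with -2.31 to 4.07. The 0.1% ACT side of these differences is the contrast that named the enriched ORs. For these ORs the differences are therefore a description, the call of Olfr983 without litter 3 included.

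**Figure D5:**
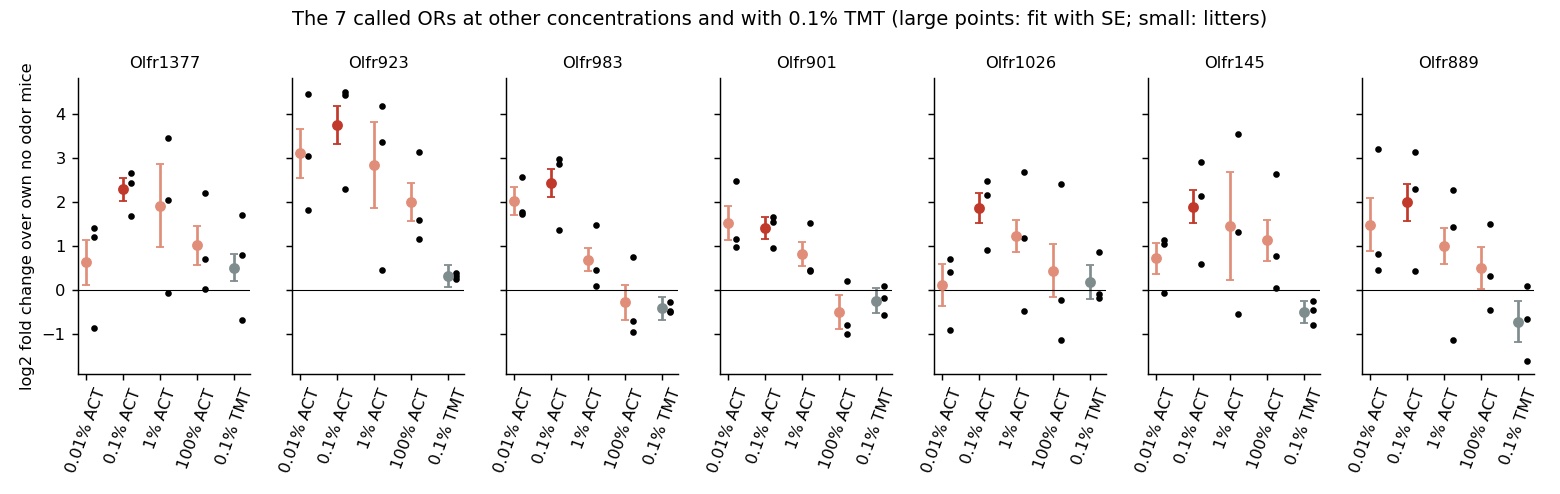
Log2 fold change over own no odor mice, with SE bars, for the 7 enriched ORs at the 4 ACT concentrations in rising order and at 0.1% TMT, with the 3 litters as small black points. At 0.1% ACT all 3 litters lie above 0 for each OR, whereas at 0.1% TMT the fitted values lie between -0.72 and 0.51.

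TMT (2,5-dihydro-2,4,5-trimethylthiazoline, a thiazoline of fox odor) at the same concentration gave a response in other ORs. The responses to 0.1% ACT and 0.1% TMT, each against its own no odor littermates, differed for 16 ORs, 7 with the larger value for ACT (0.643%) and 9 for TMT (0.827%). Of the 7 enriched ORs, 6 were among those larger for ACT. The log2 difference was 3.41 for Olfr923 (SE 0.45, adjusted p = 1.98e-06), 2.82 for Olfr983, 2.69 for Olfr889, 2.37 for Olfr145, 1.77 for Olfr1377 and 1.65 for Olfr901, with adjusted p up to 0.025. The remaining OR larger for ACT was Olfr913, at 2.01 (adjusted p = 0.0361). Olfr1026 did not pass (1.68, SE 0.50, adjusted p = 0.0896). The ACT side of these differences is the contrast that named the 7 ORs, so for them the differences are a description.

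A measure from other mice is the response to 0.1% TMT alone, where 15 ORs were higher (1.38%) and 7 lower (0.643%), none of the 7 enriched ORs among them. Olfr923 had 1045, 1299 and 1265 CPM at 0.1% TMT, against 837, 997 and 1052 CPM in the no odor mice of that experiment (log2 fold change 0.32, SE 0.25, adjusted p = 0.951). Olfr145 was at -0.49 (SE 0.24) and Olfr889 at -0.72 (SE 0.46). On the other side, Olfr1395 had the largest difference, -3.27 (SE 0.37, adjusted p = 7.27e-09), with log2 fold changes of -0.45 at 0.1% ACT and 2.81 at 0.1% TMT. Olfr1297, Olfr165, Olfr186, Olfr164 and Olfr196 followed, with differences between -3.06 and -2.02 and log2 fold changes at 0.1% TMT between 1.78 and 3.07. Without the litter blocks the responses differed for 10 ORs in place of 16. The libraries of the odorants came from different litters, which the fit holds as blocks.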

How the data were processed

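RNA captured with phosphorylated S6 was made into unstranded libraries (SMART-Seq v4 and Nextera) and sequenced in reads of 50 bases. Per the study's methods, the authors mapped the reads with STAR to GRCm38, using gene models in which ORs carry their untranslated regions. The values are RSEM expected counts per gene, which the authors rounded and deposited for intact ORs only. The rounded counts of 0.1% ACT and no odor (3 libraries each) were compared with edgeR 4.0.16 (R 4.3.3), by its quasi-likelihood test with robust fits, TMM factors over the ORs, the litter as a block and Benjamini-Hochberg adjustment over 1088 ORs, calling an adjusted p under 0.05. No filter on low counts was used. All p-values of single ORs come from this tool, are two-sided and rest on 3 litters. The main departure from the study's own fit is the quasi-likelihood test, in place of a likelihood ratio test. Changes per litter used CPM + 5.

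Litters pair the mice by design. Deviations from group means, over the 915 ORs averaging 10 or more counts, correlated with r = 0.191, 0.0837 and 0.254 between littermates and from -0.282 to 0.134 between other mice. Total counts on ORs ran from 76085 to 117967 per library, and the biological coefficient of variation was 0.26. Intervals on shares are exact (Clopper-Pearson, 95%) and cover counting error only. The limit for Olfr151 with no odor is instead 3 counts over the total. The fits were tested on simulated data.

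The likelihood ratio test, DESeq2 1.42.0, limma-voom (limma 3.58.1), other scalings, a filter, a fit without the block, a joint fit and leaving out each litter were the alternatives. Sums over near-identical ORs were added after seeing the data. The OR lists and members were chosen with earlier results of these data known. Named were the enriched ORs, the 10 further ORs with the smallest p upward and 5 downward, ORs of the receptor lists, up to 3 members of each other list, and the relatives and chromosome neighbours of the enriched ORs; Olfr140, Olfr773, Olfr1213 and the ORs of the ACT and TMT difference were named beside these. Relatives were found by edit distance between coding sequences (edlib 1.3.9.post1) from the GRCm38 genome and GENCODE M21 models, which placed 1082 ORs. The sequence stretch of 1 enriched OR is not reported here.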

Additional observations from a re-analysis of the deposited data

How the results depend on the processing

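The enriched ORs at 0.1% ACT numbered 7, and 6 to 10 with the likelihood ratio test, DESeq2, limma-voom, other scalings and non-robust fits. Filtering low counts with filterByExpr left 4 (Olfr1377, Olfr901, Olfr923 and Olfr983), and the joint fit of 9 libraries left 0. Leaving out a litter gave between 0 and 11 ORs higher, 0 without litter 1 or litter 2, and between 0 and 1 lower. Without TMM 10 ORs were higher and 1 lower. Without the replicate block 7 were higher, 6 of them shared with the fit that has the block, since Olfr901 left and Olfr890 entered. Between 0.1% and 0.01% ACT, DESeq2 called 1 OR in place of 0. For the responses to 0.1% and 1% ACT, leaving out a litter gave between 0 and 1 ORs. The difference between the responses to 0.1% ACT and 0.1% TMT covered 16 ORs, 10 without the replicate block and between 11 and 15 with a litter left out. The cause of these shifts was not tested, apart from the fewer libraries or ORs that the alternatives hold by construction.

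Among the 51 ORs whose log2 fold changes were recomputed under the alternatives, signs turned when a litter was left out for 6, none of them called. The log2 fold changes then ran from -0.085 to 0.26 for Olfr1019, from -0.16 to 0.023 for Olfr1427, from -0.70 to 0.87 for Olfr1378, from -0.55 to 0.14 for Olfr140, from -0.22 to 0.095 for Olfr887 and from -0.066 to 0.38 for Olfr982. With 3 litters and 76085 to 117967 OR counts per library, changes of ORs with few counts, such as Olfr151, were not resolved.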
